A study of Mus musculus with 16 samples.

Results

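The effect of the dual leucine zipper kinase (DLK) inhibitor GNE-3511 was examined in mouse retinas whose optic nerve had not been crushed. The comparison set 5 libraries labelled uncrushed and dlki against 3 libraries labelled uncrushed and control, which are 8 of the 16 RNA-seq libraries of the series. The libraries were chosen by these 2 labels alone. The study collected retinas 3 days after an acute crush of the optic nerve, an injury that cuts the axons of retinal ganglion cells, and the other 8 libraries are crushed retinas given the inhibitor (5) or the vehicle (3). Inhibitor mice received GNE-3511 at 75 mg/kg in 2 doses, given 60 and 68 h after the injury, and control mice received the vehicle, MCT. The uncrushed retinas therefore had an intact nerve and late exposure to drug or vehicle. The labels state 5 mice per drug. They give no strain, age or sex, do not tie retinas to animals, and do not state whether an uncrushed retina is the fellow eye of a crushed one. The p-values therefore measure only the spread between these samples. The fit of all 16 libraries treats each as independent, so if crushed and uncrushed retinas share mice its spread rests on fewer animals than libraries.

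DLK, encoded by Map3k12, is a neuronal MAP kinase kinase kinase that sits at the top of a cascade ending in the JNK kinases, which phosphorylate the transcription factor c-Jun. In ganglion cells it is best known for carrying the signal of axon damage to the nucleus, where it switches on injury and death genes. A second stress route tied to DLK is the integrated stress response, in which phosphorylation of eIF2α favours translation of the transcription factor ATF4, and ATF4 then induces genes for amino acid synthesis, amino acid transport and transfer RNA charging.

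All 8 libraries carried the RNA of a rod-rich neural retina: rhodopsin took 3.43% to 4.29% of the counts, and all 19 ganglion cell markers and all 17 rod markers were detected well enough to be tested. Total counts were 22.4 to 38.6 M reads in the vehicle libraries and 32.2 to 44.7 M in the inhibitor libraries. Vehicle replicate 1 stood apart. It was the shallowest library, 4.49% of its counts were mitochondrial against 2.24% to 3.02% in the other 7, and on the first principal component (31.4% of the variance) it lay at 51.8 while the others lay between -28.4 and 9.98. The number of calls, the calls of single genes and several list medians are also given without it below. The motif shares and the calls shared with crushed retina come from the fit of all 16 libraries alone.

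In the fit of all 16 libraries, 122 of 19391 tested genes (0.629%) passed an adjusted p of 0.05, 51 higher with the inhibitor (0.263%) and 71 lower (0.366%). The changes were small: the median log2 change was 0.34 among the genes called higher and -0.48 among those called lower, and 1 gene rose and 6 fell by a factor of 2 or more. The inhibitor and vehicle libraries did not overlap in any of the 122 genes, while over all tested genes 5.24% had every inhibitor library above every vehicle library and 4.31% had every one below. The median log2 change of all tested genes was 0.01, and 3349 genes (17.3%) had an unadjusted p under 0.05. With upper-quartile scaling the calls were 30 higher and 80 lower, which moves the split towards genes that fell. DESeq2 called 623 genes, 344 higher and 279 lower. The shares over all tested genes given here, and these DESeq2 counts, are the background for the list counts below.

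**Figure D1:**
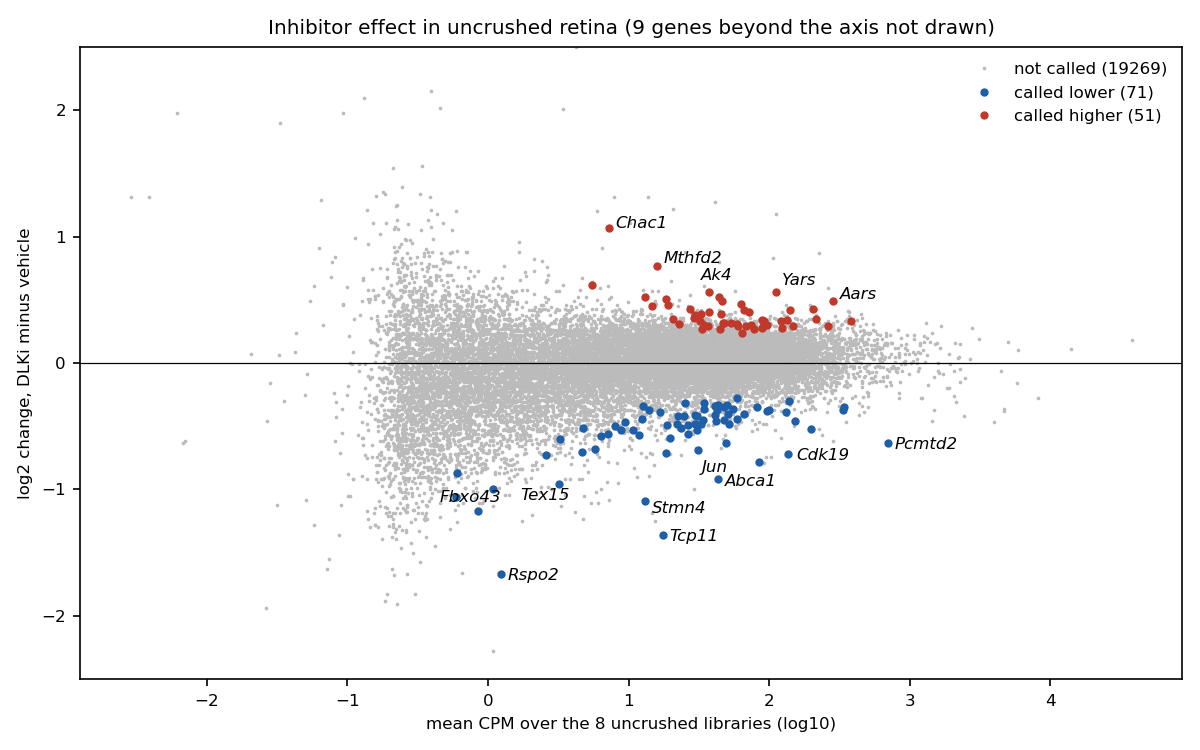
Log2 change with the inhibitor (vertical axis) against mean CPM over the 8 uncrushed libraries (horizontal axis, log10) for the tested genes; red and blue points are the 51 genes called higher and the 71 called lower, and 9 genes beyond the axis are not drawn. The called genes lie close to 0, with Chac1 at 1.07 and Rspo2 at -1.67 as the ends of the called genes.

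The number of calls depended on single libraries. It was 19 (4 higher and 15 lower) without vehicle replicate 1, 17 without vehicle replicate 2 and 63 without vehicle replicate 3. It was 57, 133, 23, 26 and 205 without inhibitor replicates 1 to 5 in turn, and the 8 uncrushed libraries fitted alone gave 3 genes, Abca1, Tcp11 and Stmn4. Each of the 122 genes kept its sign in the 23 other fits made. Leaving out 1 library could hardly reverse a sign, because the groups did not overlap in any of these genes. The kept sign is therefore no separate check. A core of 11 genes was called whichever uncrushed library was left out: Mthfd2 rose, and Abca1, Tcp11, Cdk19, Rspo2, Stmn4, Chd1l, Arhgef10l, Zfp36l2, Pbx3 and Mex3b fell. The last 5 are named because they stayed called, a choice made after their values were seen.

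**Figure D2:**
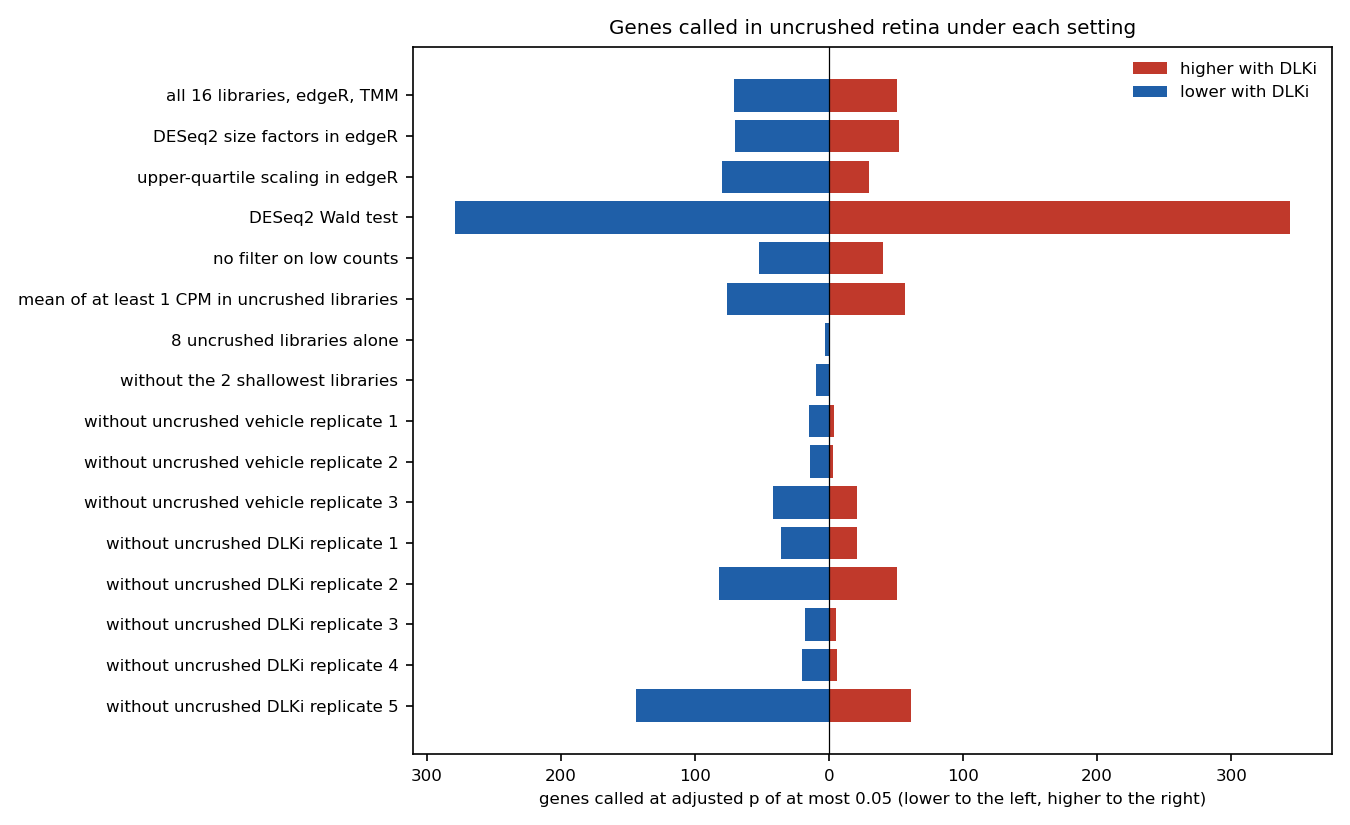
Number of genes called higher (red, to the right) and lower (blue, to the left) with the inhibitor in uncrushed retina, in the main fit and under each alternative setting. The count runs from 3 with the 8 uncrushed libraries alone to 623 with DESeq2, against 122 in the main fit.

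The transcript of the target kinase did not pass the test. Map3k12 measured 47.3, 38.2 and 39.1 nRPKM in the vehicle libraries and 39.7, 39.6, 41.6, 39.0 and 42.7 in the inhibitor libraries, where nRPKM is the authors' length-scaled and library-scaled expression value. The 2 groups overlapped, and the log2 change was -0.04 ± 0.07 (SE, adjusted p = 0.834). Map3k13, the close relative of DLK also called LZK, changed by 0.06 ± 0.09 (adjusted p = 0.765). A kinase inhibitor acts on the protein, so these values check neither the dose nor the labels. None of the 20 tested genes of the DLK-JNK cascade was called by edgeR, against 0.629% of all tested genes. Of the 20, 6 had an unadjusted p under 0.05, against 17.3% of all tested genes, and 1 was called by DESeq2. Their median log2 change was 0.05. The smallest adjusted p was that of the JNK scaffold gene Mapk8ip3 (0.24 ± 0.06, adjusted p = 0.0697).

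The 2 largest increases among the called genes, Chac1 and Mthfd2, were in targets of ATF4. Of 33 tested ATF4 and integrated stress response targets, 4 rose and none fell, against 0.263% of all tested genes called higher. The median log2 change of the list was 0.26, or 0.21 without vehicle replicate 1, and 7 of the 33 changes were below 0. In 12 of the 33 members every inhibitor library lay above every vehicle library, against 5.24% of all tested genes. In 1 member, Atf3, every inhibitor library lay below every vehicle library, against 4.31% of all tested genes. Its values are given below. The 4 called by edgeR were Chac1, Mthfd2, Aldh18a1 and Slc7a1, while DESeq2 called 12 of the 33 higher and none lower.

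Chac1, on chromosome 2 at 119351242 to 119354326 of GRCm38, encodes an enzyme that degrades glutathione and is a standard readout of ATF4 activity. It measured 2.11, 2.55 and 2.36 nRPKM with vehicle and 5.01, 3.77, 6.65, 5.43 and 3.80 with the inhibitor. The lowest inhibitor library was above the highest vehicle library. The means were 2.34 ± 0.223 (SD, n = 3) and 4.93 ± 1.21 (SD, n = 5), and the log2 change was 1.07 ± 0.18 (adjusted p = 0.0145), the largest increase among the called genes. The call was lost when vehicle replicate 1 or vehicle replicate 2 was left out, at adjusted p up to 0.0814, and with the other uncrushed libraries left out in turn it stayed called.

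Mthfd2, on chromosome 6 at 83305704 to 83326011, encodes a mitochondrial enzyme of one-carbon metabolism. It measured 3.99, 4.48 and 3.90 nRPKM with vehicle and 6.75, 6.04, 8.60, 6.62 and 7.29 with the inhibitor, again without overlap. The log2 change was 0.77 ± 0.11 (adjusted p = 0.00535), and leaving out 1 uncrushed library raised the adjusted p to at most 0.0403. Aldh18a1, which makes the precursor of proline, rose by 0.52 ± 0.09 (adjusted p = 0.0159), from 8.15 to 9.11 nRPKM with vehicle to 11.7 to 13.1 with the inhibitor. Slc7a1, a carrier of cationic amino acids, rose by 0.49 ± 0.10 (adjusted p = 0.0332), from 3.35 to 3.88 nRPKM to 4.34 to 5.45. The calls of these last 2 genes were lost without any 1 of the 3 vehicle libraries or of inhibitor replicates 3 and 4, and that of Slc7a1 also without inhibitor replicate 1 or crushed inhibitor replicate 1, with adjusted p up to 0.0839 for Aldh18a1 and 0.153 for Slc7a1.

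The transcription factors of this route did not pass the test. Atf4 mRNA measured 114, 111 and 111 nRPKM with vehicle and 142, 132, 164, 136 and 133 with the inhibitor. The groups did not overlap, yet the log2 change of 0.33 ± 0.08 had an adjusted p of 0.0685. Ddit3, which encodes CHOP, was at most 20.1 nRPKM with vehicle and 21.5 to 25.3 with the inhibitor (0.20 ± 0.08, adjusted p = 0.222). Of 20 tested endoplasmic reticulum chaperones and unfolded protein response genes, none was called by edgeR or DESeq2, none had an unadjusted p under 0.05, and the median log2 change was -0.02.

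Calls were also found among the enzymes that load amino acids onto transfer RNAs. Among the 20 tested cytosolic aminoacyl-tRNA synthetases, 9 rose and none fell, against 0.263% of all tested genes called higher. Their median log2 change was 0.28, or 0.24 without vehicle replicate 1, and 14 of the 20 had every inhibitor library above every vehicle library, against 5.24% of all tested genes. Those called higher by edgeR were Yars, Iars, Gars, Nars, Mars1, Farsb, Aars, Tars and Cars. Mars1, Farsb and Tars fall outside the rule for named genes and are given to complete the count. DESeq2 called 14 of the 20 higher and none lower.

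Yars, the tyrosine enzyme, measured 21.8, 26.9 and 27.0 nRPKM with vehicle and 37.4, 35.7, 42.9, 37.1 and 33.3 with the inhibitor, a log2 change of 0.56 ± 0.09 (adjusted p = 0.0113). Aars, the alanine enzyme, measured 35.7, 45.6 and 49.5 nRPKM with vehicle and 61.0, 59.5, 68.1, 64.0 and 53.6 with the inhibitor (0.49 ± 0.10, adjusted p = 0.0293). Neither gene overlapped between the groups. The remaining 7 rose by 0.29 (Farsb) to 0.47 (Cars). The call of Yars was lost without vehicle replicate 1 (adjusted p = 0.0684), that of Aars without vehicle replicate 1 or 2 or inhibitor replicate 1, 3 or 4 (up to 0.135), and the count of synthetases called fell to 1 without vehicle replicate 1, vehicle replicate 2, inhibitor replicate 3 or inhibitor replicate 4, and to 0 with the 8 uncrushed libraries alone. The list's median stayed between 0.24 and 0.31 whichever uncrushed library was left out. Its sign could not reverse, because 14 of the 20 did not overlap between the groups. The kept direction is therefore no separate check. The 17 tested mitochondrial synthetases, a list added after the data were seen, held no gene called by edgeR or DESeq2 and 4 with an unadjusted p under 0.05, and had a median log2 change of -0.02.

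**Figure D3:**
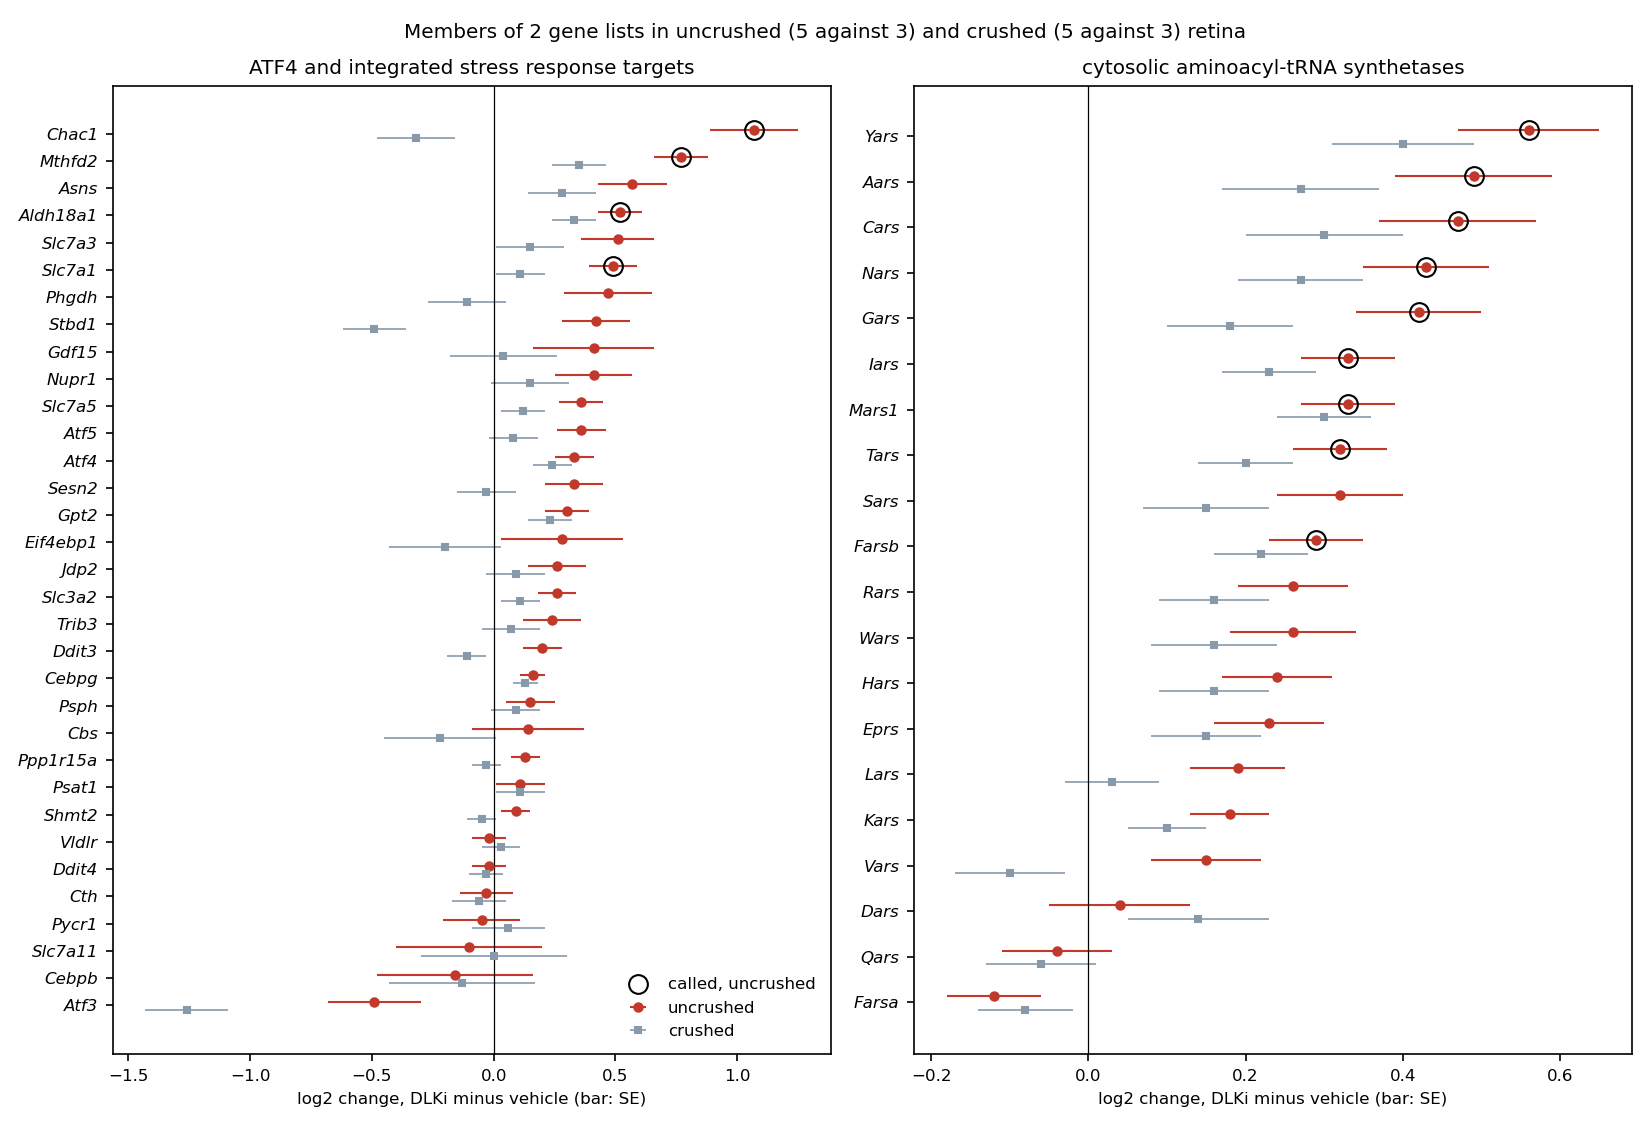
Log2 change with the inhibitor (horizontal axis, bar 1 SE) for each tested ATF4 and integrated stress response target (left, 33 genes) and cytosolic aminoacyl-tRNA synthetase (right, 20 genes), with uncrushed retina as red circles and crushed retina as grey squares; open rings mark genes called in uncrushed retina. The ringed genes, 4 on the left and 9 on the right, all lie to the right of 0.

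The ATF4 family binds a composite site, the C/EBP-ATF response element (CARE), searched here as TGATGNAA on both strands, where N is any base. Promoter windows of 300 bases, from 250 before to 50 after each RefSeq start on GRCm38.p6, matched 13643 tested genes, including 37 of the 51 called higher and 48 of the 71 called lower. The element lay in 14.0% of the windows of genes called higher (6 of 43), 1.49% of those of genes called lower (1 of 67) and 2.51% of all windows (438 of 17416). Of the motifs searched, it was picked because its share among genes called higher stood highest relative to all windows. It is therefore no independent evidence. The windows below hold it in 3 of the named genes that rose. Chac1 and Aars were named by their change, and Gars by its place in the synthetase list. The first lies at chr2:119351009-119351096, the second at chr8:111033690-111033777 and the third at chr6:55037931-55038000, all on the plus strand. The match in capitals, read on the minus strand, starts 193, 112 and 30 bases before a RefSeq start. That of Aars is an alternative start inside the gene, whose listed span begins at 111027778.
Chac1: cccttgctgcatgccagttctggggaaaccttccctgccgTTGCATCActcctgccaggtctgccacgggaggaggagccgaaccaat
Aars: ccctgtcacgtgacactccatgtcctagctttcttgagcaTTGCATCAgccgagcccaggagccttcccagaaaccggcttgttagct
Gars: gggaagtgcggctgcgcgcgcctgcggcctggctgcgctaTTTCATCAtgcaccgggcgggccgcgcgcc
A match describes the letters and not binding by a factor. The E-box CACGTG was present in 30.2% of the windows of genes called higher (13 of 43), 16.4% of those called lower (11 of 67) and 9.01% of all windows. The AP-1 element TGANTCA, to which c-Jun binds, was present in 2.33%, 7.46% and 5.52% of the same windows, and the cyclic AMP element TGACGTCA in 4.65%, 4.48% and 2.65%.

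Genes that build ribosomes also held calls in 1 direction. In a list of 40 ribosome biogenesis genes, added after the called genes were seen and therefore no independent evidence, 5 rose and none fell, against 0.263% of all tested genes called higher, and the median log2 change was 0.14. Nop2, a methyltransferase of ribosomal RNA, rose by 0.33 ± 0.06 (adjusted p = 0.0258), from 8.82 to 9.57 nRPKM with vehicle to 10.9 to 12.8 with the inhibitor. Utp14a (0.35 ± 0.07), Ftsj3 (0.30 ± 0.06), Gnl2 (0.24 ± 0.05) and Utp3 (0.42 ± 0.09, outside the rule for named genes) also rose. The calls of Nop2, Utp14a, Ftsj3 and Gnl2 were lost without vehicle replicate 1 or 2 or inhibitor replicate 3 or 4, and that of Gnl2 without any 1 of the 8, at adjusted p up to 0.199. DESeq2 called 8 of the 40 higher and none lower.

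Other named increases had no common list. Ak4, a mitochondrial adenylate kinase, measured 3.71, 4.86 and 4.54 nRPKM with vehicle and 6.22, 7.17, 5.91, 7.24 and 5.82 with the inhibitor (0.56 ± 0.11, adjusted p = 0.0344). Ddx28, an RNA helicase, rose by 0.51 ± 0.10 (adjusted p = 0.0332) and Zfp830, a zinc finger gene, by 0.43 ± 0.07 (adjusted p = 0.0121). Nxnl1, the photoreceptor gene for rod-derived cone viability factor, was among the 3 genes that rose with the highest mean CPM: 93.8 to 105 nRPKM with vehicle and 114 to 135 with the inhibitor (0.33 ± 0.07, adjusted p = 0.0424). Ak4 and Nxnl1 stayed called without inhibitor replicate 5 and lost the call without any other 1 uncrushed library (adjusted p up to 0.187 and 0.186). Zfp830 lost it without vehicle replicate 2 or 3 (up to 0.0628), and Ddx28 without any 1 vehicle library or inhibitor replicate 1, 3 or 4 (up to 0.145). Some of the 12 largest increases overlap exons of another gene. The overlap covered 15.1% of the exon length of Aars, 3.21% of Cars, 3.18% of Ddx28 and 0.505% of Yars. It covered 76.9% of Mir8094 and 39.2% of Ube4bos3. Among the 12 largest decreases, it covered 11.6% of Tcp11, 7.28% of Jun and 4.58% of Cdk19, and nothing of the rest. Mir8094 (chromosome 17, 35251289 to 35251405) lies inside the span of Ddx39b (35241746 to 35253707), which was itself called higher at 0.35 ± 0.08, and Ube4bos3 overlaps exons of Ube4b on the other strand. The count of Mir8094 comes from poly(A) RNA and does not measure the mature microRNA, and reads of Ube4bos3 and Ube4b cannot be told apart by strand.

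**Figure D4:**
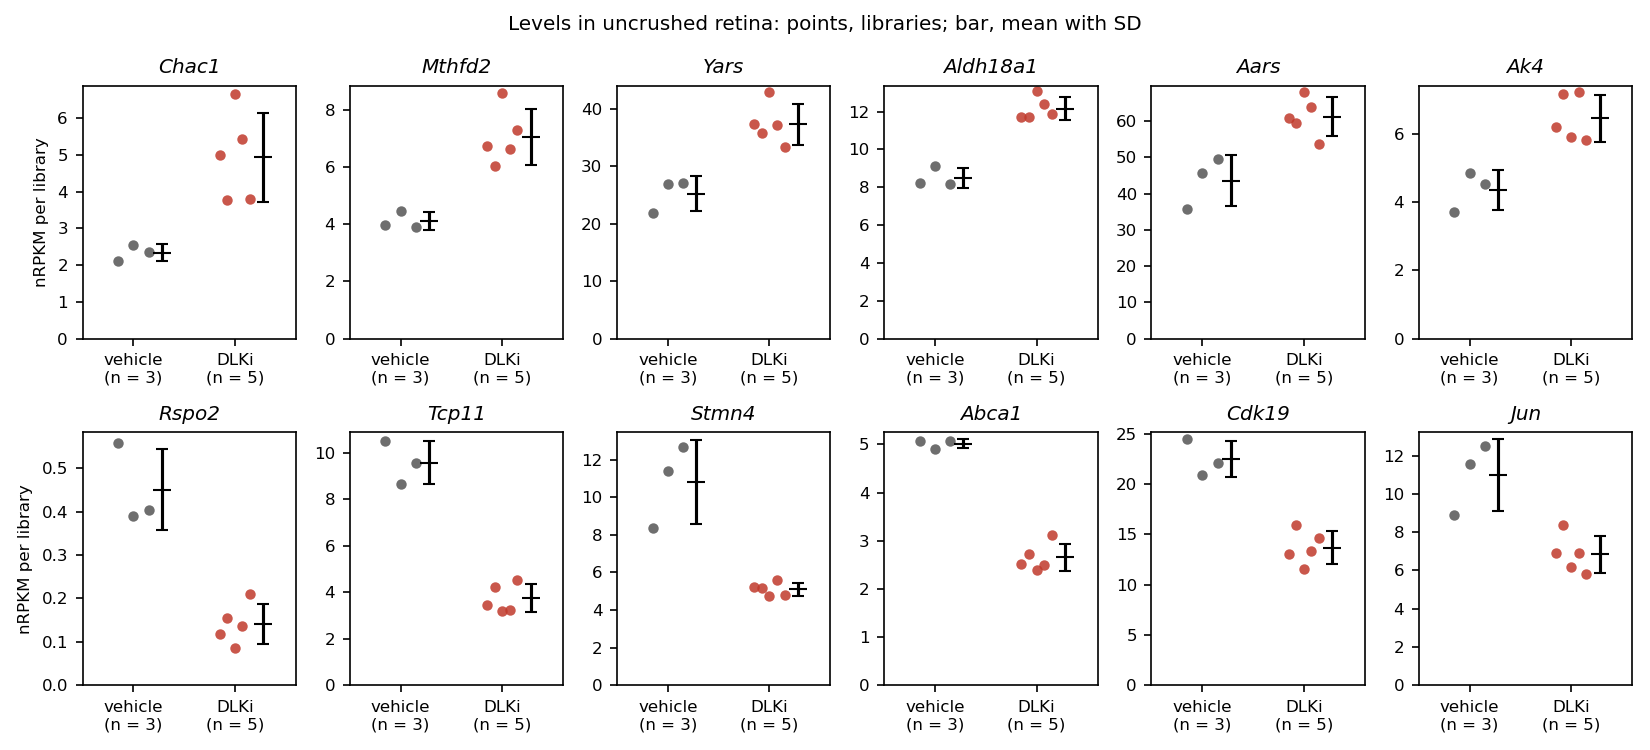
nRPKM in each uncrushed library (vertical axis, from 0) for 6 genes that rose with the inhibitor (top) and 6 that fell (bottom); grey points are the 3 vehicle libraries, red points the 5 inhibitor libraries, and the black bar is the mean with its SD. The groups do not overlap in any of the 12 genes; Chac1 goes from a mean of 2.34 to 4.93 and Abca1 from 5.02 to 2.65.

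Among the genes that fell, Abca1 had the smallest p. It encodes the membrane transporter that exports cholesterol to lipid-poor apolipoproteins and lies on chromosome 4 at 53030789 to 53159988. It measured 5.06, 4.91 and 5.08 nRPKM with vehicle and 2.52, 2.72, 2.40, 2.49 and 3.12 with the inhibitor, a fall of 47.3% (log2 change -0.92 ± 0.09, adjusted p = 7.39e-05). The gap between the groups was wider than the range within either one. The adjusted p was at most 0.00128 whichever uncrushed library was left out and 0.00278 with the 8 libraries alone. Among the 7 tested genes of cholesterol efflux and the LXR receptors, which induce Abca1, it was the only one called by edgeR, against 0.366% of all tested genes called lower, and DESeq2 called 2 lower. All 7 log2 changes were below 0, with a median of -0.07. None of the 28 tested genes of cholesterol and fatty acid synthesis was called by edgeR (6 had an unadjusted p under 0.05 and DESeq2 called 1), and their median was -0.09.

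Tcp11, a gene best known from testis (chromosome 17, 28066747 to 28080726), measured 10.5, 8.65 and 9.55 nRPKM with vehicle and 3.45, 4.24, 3.20, 3.25 and 4.52 with the inhibitor. It fell by 1.36 ± 0.15 on the log2 scale (adjusted p = 0.000734), without overlap. Cdk19, a kinase of the Mediator complex that regulates transcription (chromosome 10, 40349287 to 40483818), measured 24.5, 20.9 and 22.1 nRPKM with vehicle and 11.6 to 15.9 with the inhibitor (-0.72 ± 0.10, adjusted p = 0.00393). Both remained called without any 1 uncrushed library, at adjusted p of at most 0.00727 and 0.026.

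Rspo2, a secreted enhancer of Wnt signalling, had the largest fall among the called genes and a low level. Its counts were 60, 73 and 68 reads in the vehicle libraries and 19, 32, 16, 24 and 32 in the inhibitor libraries, from 0.389 to 0.559 nRPKM and from 0.0863 to 0.209 nRPKM. The log2 change was -1.67 ± 0.22 (adjusted p = 0.00393). Fbxo43 and Tex15, genes of the germ line, also fell from low levels, by 1.00 ± 0.22 (adjusted p = 0.0451) and 0.96 ± 0.20 (adjusted p = 0.0347) on the log2 scale. Their calls were lost without any 1 of the vehicle libraries or inhibitor replicates 1, 3 or 4, and that of Fbxo43 also without inhibitor replicate 5, with adjusted p up to 0.213 and 0.157.

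Genes tied to axon injury and to DLK output gave 2 calls by edgeR among 29 tested, both lower, against 0.366% of all tested genes, and 3 by DESeq2, all lower. Stmn4, a neuronal stathmin that binds tubulin (chromosome 14, 66344210 to 66361680), measured 8.35, 11.4 and 12.7 nRPKM with vehicle and 5.25, 5.15, 4.73, 5.61 and 4.82 with the inhibitor. Its log2 change was -1.09 ± 0.16 (adjusted p = 0.00535), with an adjusted p of at most 0.0475 without any 1 uncrushed library. Stmn2 and Stmn3, of the same family, were not called. They are named here after their values were seen (0.31, adjusted p = 0.218, and 0.26, adjusted p = 0.33). Stmn4 was also the only one called by edgeR of 19 tubulins, stathmins and microtubule proteins, against 0.366% of all tested genes called lower, while DESeq2 called 2 of the 19 higher and 1 lower. Their median log2 change was 0.14, or 0.05 without vehicle replicate 1.

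Jun, which encodes the transcription factor at the end of the JNK cascade (chromosome 4, 95049036 to 95052222), measured 8.89, 11.6 and 12.5 nRPKM with vehicle and 6.91, 8.39, 6.18, 6.93 and 5.82 with the inhibitor. The groups did not overlap, but the nearest 2 libraries, 8.39 and 8.89, lay close together. The fall was 38.1% (log2 change -0.69 ± 0.15, adjusted p = 0.0402). This call rested on few libraries: it held without inhibitor replicate 2 and was lost without any other 1 of the 8 uncrushed libraries, and without crushed vehicle replicate 1 or crushed inhibitor replicate 1, at adjusted p up to 0.17 without vehicle replicate 2. It was the only call by edgeR among 26 AP-1 and immediate early genes, against 0.366% of all tested genes called lower, and DESeq2 called 2 higher and 2 lower. Their median log2 change was 0.18, or 0.08 without vehicle replicate 1, and 18 of the 26 were above 0.

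The remaining readouts of DLK activity and neuronal activity did not pass. Atf3, a stress-induced transcription factor, measured 3.50, 3.03 and 2.94 nRPKM with vehicle and 2.22, 2.58, 2.08, 2.11 and 2.15 with the inhibitor. The groups did not overlap, and the log2 change was -0.49 ± 0.19 (adjusted p = 0.21). Fos changed by 0.42 ± 0.19 (adjusted p = 0.281) and Egr1 by 0.80 ± 0.22 (adjusted p = 0.103), both with overlapping groups.

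Of 15 tested p53 targets, 1 was called, lower, against 0.366% of all tested genes. Trp53inp1, a stress gene of autophagy and cell death, measured 7.95, 7.37 and 7.78 nRPKM with vehicle and 5.40, 6.55, 5.40, 5.57 and 6.05 with the inhibitor (-0.41 ± 0.07, adjusted p = 0.0158). The groups did not overlap. The call was lost without any 1 vehicle library or inhibitor replicate 3 or 4, at adjusted p up to 0.0815, and the list's median log2 change was -0.02.

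Several abundant or regulatory genes also fell. Pcmtd2, which had the highest mean CPM among the genes that fell, measured 163, 129 and 122 nRPKM with vehicle and 81.7, 98.3, 79.8, 88.7 and 97.1 with the inhibitor (-0.63 ± 0.11, adjusted p = 0.0121). Sgk1, a kinase gene induced by glucocorticoids, fell by 0.37 ± 0.07 on the log2 scale (adjusted p = 0.0332), the only call among 19 glucocorticoid-responsive genes by edgeR or DESeq2, against 0.366% of all tested genes called lower. Hnrnpdl, an RNA-binding protein gene, fell by 0.52 ± 0.08 (adjusted p = 0.00739), while Hnrnpm of the same family rose by 0.29 ± 0.06 (adjusted p = 0.0253), and these were the only 2 calls by edgeR among 26 splicing factors, a list added after the data were seen, against 0.263% of all tested genes called higher and 0.366% called lower. DESeq2 called 3 of the 26 higher and 2 lower. The transcription factor gene Klf11 (-0.68 ± 0.13, adjusted p = 0.0264), the centrosome gene Cntrl (-0.71 ± 0.13, adjusted p = 0.0181), Mlf1 (-0.70 ± 0.14, adjusted p = 0.0282) and the immunoglobulin receptor gene Fcamr (-0.73 ± 0.12, adjusted p = 0.00874) completed the 12 largest decreases. Of these 8 genes, Pcmtd2 and Hnrnpdl lost the call without vehicle replicate 1 alone and Fcamr without vehicle replicate 2 alone. Klf11 lost it without vehicle replicate 2 or 3, and the other 4 without vehicle replicate 1 or 2. Klf11 and those 4 also lost it without inhibitor replicate 3 or 4, Mlf1 and Sgk1 without vehicle replicate 3, and Sgk1 without inhibitor replicate 1 or crushed inhibitor replicate 1, at adjusted p up to 0.193 (Sgk1).

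None of the 237 tested entries of 17 lists of cell type markers was called by edgeR, against 0.629% of all tested genes. An unadjusted p under 0.05 was found in 36 of the 237, against 17.3% of all tested genes. DESeq2 called 4 of the 237, and 623 genes in all. Several medians lay away from 0 and most of these moved with vehicle replicate 1. The 19 ganglion cell markers were all above 0, with a median log2 change of 0.30. Without that library it was 0.12. Their summed level was 499, 690 and 710 nRPKM with vehicle and 834, 722, 807, 843 and 636 with the inhibitor, so the groups overlapped. In bulk tissue, fewer cells of a type and less RNA per cell cannot be told apart.

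The medians of amacrine markers (0.19), horizontal cell markers (0.17) and synaptic and channel genes (0.20) went to 0.00, 0.01 and 0.07 without vehicle replicate 1. In the other direction, the 16 pigment epithelium markers had a median of -0.57 and the 11 mitochondrially encoded genes one of -0.36, and these went to 0.00 and -0.04. Vehicle replicate 1 held 609 summed nRPKM of pigment epithelium markers against 224 to 442 in the other 7 libraries. Rod, cone and Müller glia markers had medians of 0.03, -0.01 and 0.05. The median of microglia markers was -0.19, or -0.20 without vehicle replicate 1. That of interferon-stimulated genes moved from -0.10 to -0.17 without that library. Lens markers had the median farthest from 0 of these lists, 1.20, with 16 of 17 log2 changes above 0. They held 4 at an unadjusted p under 0.05 and none called by edgeR or DESeq2. Their median was 0.82 without vehicle replicate 1 and 0.34 to 4.27 when the uncrushed libraries were left out in turn. Their summed level overlapped between the groups, at 24.1, 249 and 2.12 nRPKM with vehicle and 16.9, 97.8, 343, 55.3 and 641 with the inhibitor. The part of these tissue markers in the called genes was not tested beyond leaving libraries out.

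**Figure D5:**
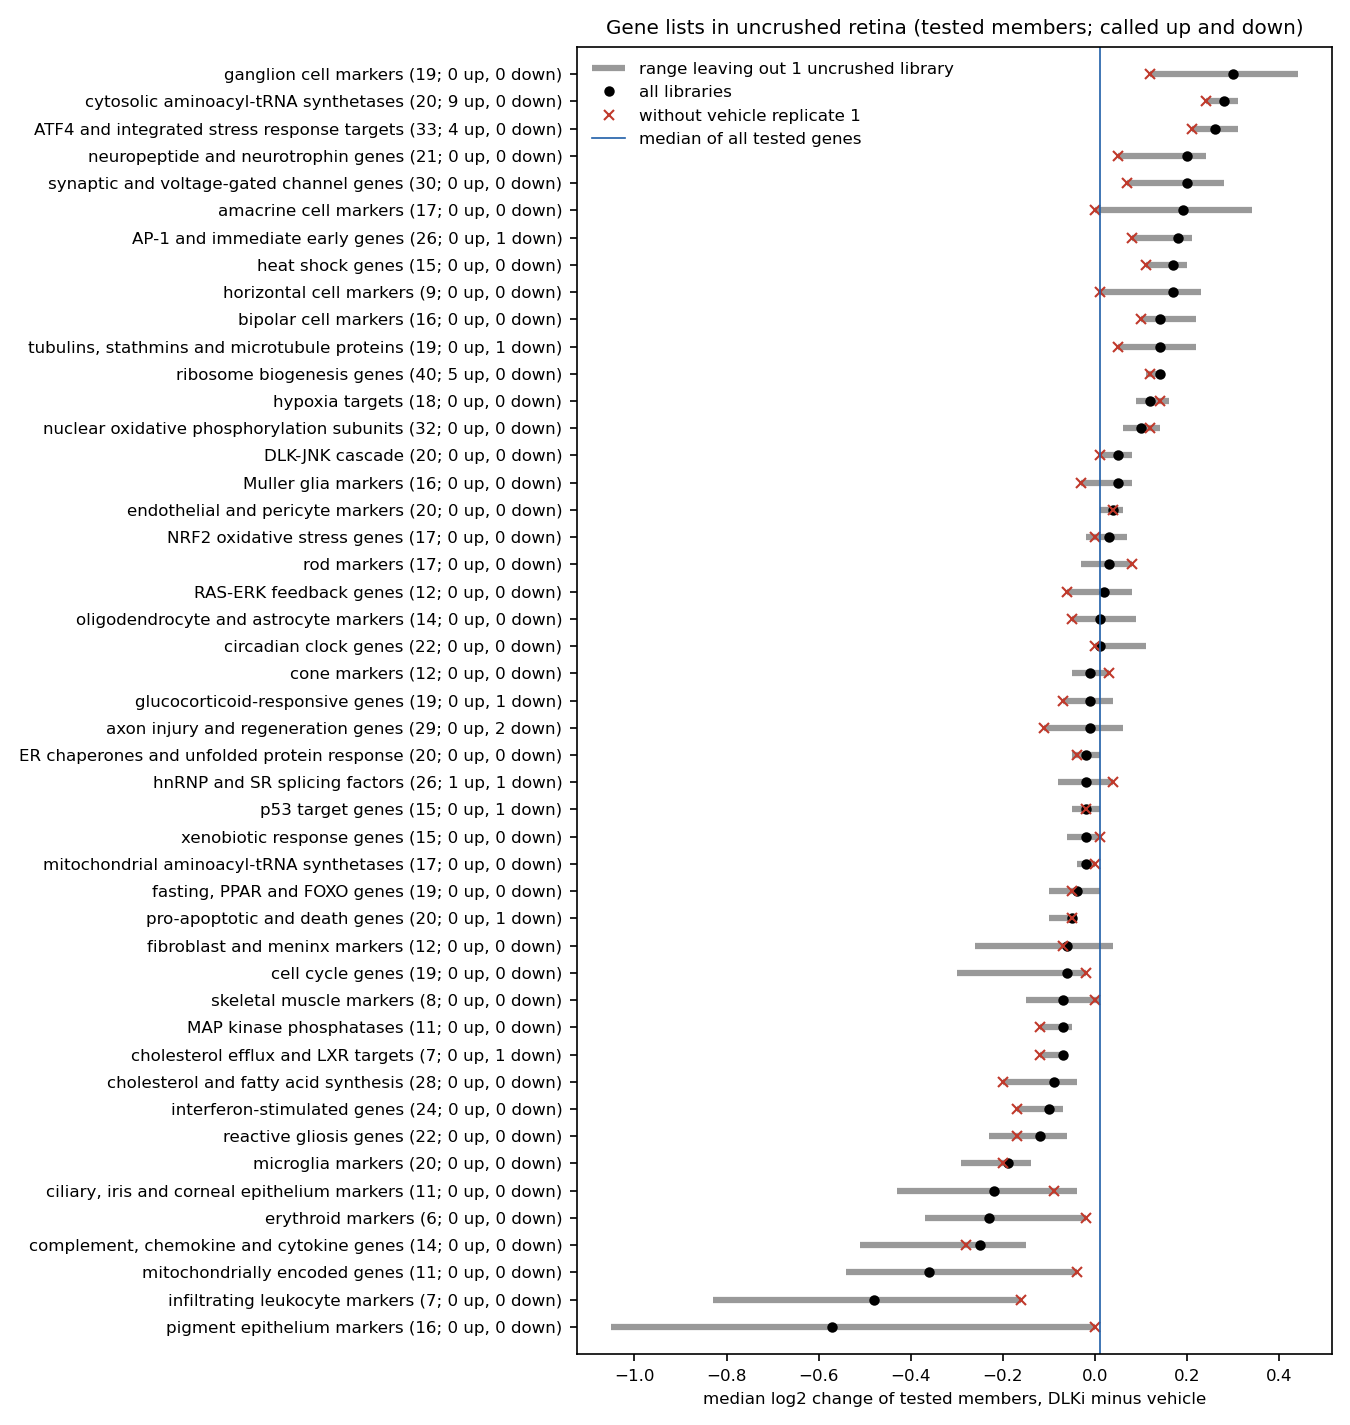
Median log2 change with the inhibitor in uncrushed retina for each gene list except lens markers, whose median of 1.20 is not drawn (tested members and calls in brackets): black dots use all libraries, red crosses leave out vehicle replicate 1, and grey bars span the fits that leave out 1 uncrushed library. Pigment epithelium markers go from -0.57 to 0.00 without vehicle replicate 1, while the synthetases stay between 0.24 and 0.31. The sign of the latter was fixed beforehand, because 14 of the 20 synthetases do not overlap between the groups.

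The same contrast in crushed retina compared other libraries within the same fit. It called 98 genes (0.505%), 25 higher (0.129%) and 73 lower (0.376%). It shared 48 calls with uncrushed retina, 39.3% of the uncrushed and 49.0% of the crushed calls, 39 lower in both and 9 higher in both. Abca1 (-0.74 in crushed retina, adjusted p = 0.00068), Tcp11 (-1.39, 0.000576), Rspo2 (-1.55, 0.0084), Cdk19 (-0.71, 0.00226) and Stmn4 (-0.76, 0.0287) fell in both. Whether the eyes came from the same animals is not given, so the overlap is not a test on independent mice. The contrasts also share each gene's estimate of spread, so their calls are not independent.

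The integrated stress response list had 0 members higher and 1 lower in crushed retina, with a median log2 change of 0.06. The lower member was Atf3 (-1.26, adjusted p = 0.00226). The synthetases had 1 higher and 0 lower, with a median of 0.16. Over all tested genes, 0.129% were called higher and 0.376% lower in crushed retina. The test of the difference between the 2 effects called no member of either list. Chac1 changed by -0.32 ± 0.16 in crushed retina (adjusted p = 0.386), and its difference between crushed and uncrushed retina had an adjusted p of 0.139. The test of the difference between the 2 effects called 2 genes (0.0103%), Gm13889 and Adcyap1, both lower with the inhibitor in crushed retina and neither called in uncrushed retina. Gm13889 stayed called in all 16 fits that left out 1 library (adjusted p at most 0.0367), and Adcyap1 lost the call in 14 of them (up to 0.263), all except those without uncrushed vehicle replicate 2 or crushed inhibitor replicate 2. Adcyap1 encodes the neuropeptide PACAP, and its level was 0.509 to 0.786 nRPKM with vehicle and 0.778 to 0.885 with the inhibitor in uncrushed retina (0.28 ± 0.14, adjusted p = 0.32) against a log2 change of -0.97 ± 0.13 in crushed retina. Gm13889, a predicted gene, changed by 0.33 ± 0.12 in uncrushed and -1.03 ± 0.11 in crushed retina.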

How the data were processed

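Total RNA of mouse retina (0.5 µg, column extraction with DNase) was made into poly(A) libraries with an unstranded kit and sequenced as single reads of 50 bases, per the labels' protocols. The deposited counts are whole numbers of reads aligned uniquely per Entrez gene model, per the file headers; unique alignment lowers genes with near-identical copies. The deposited nRPKM values are RPKM scaled by the authors with a factor per library, per the file headers; the making of that factor is not described in the sources used here. GSNAP and GRCm38 are named in the submitters' processing notes. Symbols matched 31049 of 36528 identifiers in RefSeq.

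The test was edgeR 4.0.16 (R 4.3.3) on counts, with TMM scaling, filterByExpr, a mean for each of the 4 groups over all 16 libraries and no covariate (12 residual and 5.27 prior degrees of freedom), quasi-likelihood F tests, two-sided, with Benjamini-Hochberg adjustment over the 19391 genes left. A gene is called at 0.05. The code was tested on simulated data. nRPKM gives levels only. Replicates carry accession-order numbers that pair nothing. Alternatives were DESeq2 1.42.0, 2 other scalings, 2 other filters, the 8 uncrushed libraries alone, leaving out each library, and, added after seeing the data, leaving out the 2 shallowest. The libraries, lists and rules were chosen with earlier results of these data known. Named genes are Map3k12, Map3k13, Jun, Atf3, Atf4, Ddit3, Fos and Egr1; the 12 largest increases and decreases with at least 1 CPM and a proper symbol; the 3 most abundant called genes each way; up to 4 called (or 2 uncalled) members per list; and genes called in the difference. Of 114 called genes checked against GENCODE exons, 7 had over 25% of their exon length overlapped on the other strand, of which Ube4bos3 is the only named gene. Some genes are not reported here.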

Additional observations from a re-analysis of the deposited data

Results flagged for a closer look

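In 4 genes, 1 inhibitor library lay far from the other 4 of its group: Atf3 at 2.58 nRPKM in inhibitor replicate 2, Gm13889 at 19.9 nRPKM in inhibitor replicate 3, and the lens genes Crygd at 29.6 and Bfsp1 at 4.79 nRPKM in inhibitor replicate 5. Such gaps were looked for in 121 groups of 5 libraries, and chance flags about 1 group in 20. None of these 4 genes was called in uncrushed retina. The inhibitor effect differed between crushed and uncrushed retina by the test of the difference itself in 2 genes, Gm13889 (-1.35, adjusted p = 0.00551) and Adcyap1 (-1.24, adjusted p = 0.0454). Without 1 library in turn, Adcyap1 lost its call in 14 of 16 fits.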

How the results depend on the processing

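The count of 122 called genes in uncrushed retina (51 higher, 71 lower) became 623 (344 higher, 279 lower) with DESeq2. It became 3 (0 higher, 3 lower) with the 8 uncrushed libraries alone and 11 (1 higher, 10 lower) without the 2 shallowest libraries, fits with fewer samples. Upper-quartile scaling gave 30 higher and 80 lower, and the cause of that shift was not tested. Leaving out 1 uncrushed library gave 17 to 205 calls, 3 to 61 higher and 14 to 144 lower. DESeq2 size factors, no filter on low counts and a filter of 1 CPM kept the counts within 1.5 times. DESeq2 also called 117 of the 122 genes and gave no adjusted p for the other 5. In crushed retina the 98 calls became 411 with DESeq2 and 22 to 97 without 1 crushed library. The difference of the 2 effects had 2 calls, 5 with DESeq2 and 1 to 2 without 1 library. Over the named genes and these settings, no called change reversed, which the lack of overlap between groups in the called genes largely fixed beforehand. No paired analysis was possible because the labels number the retinas without stating which share a mouse, and the inhibitor and vehicle groups lie between mice. There were 3 vehicle libraries, of which the shallowest had 22.4 M reads. A change that was not called did not pass this test with these libraries and is not shown to be absent.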

Other observations

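Some called genes outside the lists share a role with listed or named genes and were picked after their values were seen. Slc1a5, a carrier of glutamine and other neutral amino acids, fell from 4.90, 4.51 and 4.17 nRPKM with vehicle to 3.00, 3.15, 2.84, 2.68 and 3.53 with the inhibitor (log2 change -0.57 ± 0.10, adjusted p = 0.0158), while the cationic carrier Slc7a1 rose. Ppp1r15b, a subunit of the phosphatase that removes the phosphate from eIF2α, rose by 0.31 ± 0.06 (adjusted p = 0.0402), with every inhibitor library (14.8 to 16.6 nRPKM) above every vehicle library. The Wnt receptor gene Fzd4 fell by 0.42 ± 0.07 on the log2 scale (adjusted p = 0.0162). Frat1, whose product binds the kinase GSK3, fell by 0.59 ± 0.10 (adjusted p = 0.0121). No list of Wnt genes was made, so these picks and Rspo2 say nothing of the pathway as a set. Over all tested genes, 0.366% were called lower. Without vehicle replicate 2 the calls of Slc1a5, Ppp1r15b, Fzd4 and Frat1 were all lost. Those of Slc1a5 and Fzd4 were also lost without vehicle replicate 1 or inhibitor replicate 3, and that of Slc1a5 without inhibitor replicate 4. Ppp1r15b lost its call without any 1 uncrushed library except inhibitor replicate 5, and adjusted p over the 4 genes reached 0.205.

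The lists of hypoxia targets and of nuclear oxidative phosphorylation subunits held no call by edgeR. Over all tested genes, 0.629% were called and 17.3% had an unadjusted p under 0.05. The 18 hypoxia targets had a median log2 change of 0.12, or 0.14 without vehicle replicate 1, with 5 at an unadjusted p under 0.05 and 2 called by DESeq2. Of 32 nuclear subunits of oxidative phosphorylation, 27 had log2 changes above 0, with a median of 0.10, 6 at an unadjusted p under 0.05 and 1 called by DESeq2. The smallest p was that of Sdha, a subunit of succinate dehydrogenase, at 101, 106 and 117 nRPKM with vehicle and 123 to 136 with the inhibitor (0.25 ± 0.06, adjusted p = 0.0943). Otx2, a transcription factor gene of bipolar cells and photoreceptors, measured 37.9 to 44.1 nRPKM with vehicle and 32.3 to 34.7 with the inhibitor, without overlap, and did not pass the test (-0.26 ± 0.06, adjusted p = 0.0602).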
